A study of Homo sapiens with 6 samples.

Results

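The sparse range of a plating density series was examined here, from 50K to 200K plated cells (K, kilo). The cells are MCF10A, an established cell line from human mammary epithelium that does not form tumours. Its 3 arrays, 1 each for 50K, 100K and 200K plated cells, were chosen by their density labels out of 6 arrays in all; the other 3 hold 400K, 600K and 800K cells. All 6 cultures had the same treatment apart from cell number: 24 h in dishes of 35 mm before total RNA was hybridised to an Affymetrix HG-U133 Plus 2 array. The shared medium contained horse serum at 5%, insulin at 10 μg/ml, hydrocortisone at 0.5 μg/ml, EGF at 20 ng/ml, cholera toxin at 100 ng/ml and gentamicin at 100 μg/ml. No density had a replicate, and the labels do not say how many dishes went into an array. The deposited values are ratios to the 50K array, so the 50K value of every gene is 1 and a gene has a change but no level. For that reason the labelled cell type could not be checked against the presence of its markers. The 3 arrays span 2 doublings, the step from 50K to 100K and the step from 100K to 200K, and 19775 genes were followed over them.

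Epithelial cells that are plated thinly lie apart or at the rim of small islands, spread on the dish, and lay down and pull on extracellular matrix. As they become crowded they form adherens junctions, tight junctions and desmosomes with their neighbours. Contact and loss of spread area activate the Hippo kinases, which keep the coactivators YAP and TAZ out of the nucleus and so away from the TEAD transcription factors; the matricellular genes CCN1 and CCN2 are the textbook targets of that pathway. Cells of stratified epithelia respond to crowding with a programme of barrier genes as well, among them transglutaminases, kallikrein proteases and the transcription factors that drive them. MCF10A cells have traits of such basal epithelium and depend on EGF for growth.

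Over both doublings, KRT15, SULT1E1, TGM1, GRHL3 and KLK10 were among the genes that rose most, and SCG5, INSC, COL6A3 and KANK4 among those that fell most. KRT15, a keratin of basal cells, was 2.41-fold its 50K level on the 100K array and 7.70-fold on the 200K array, the largest rise among all genes. SCG5, a secretory chaperone of a prohormone convertase, was at 0.266 and then 0.0351 of its 50K level, the largest fall. In all, 3181 genes were higher at both steps (16.1% of the genes tested) and 3023 were lower at both (15.3%), 6204 genes together (31.4%). Of these, 142 differed by at least 2-fold between 50K and 200K (0.718%): 70 were at least 2-fold higher at 200K than at 50K (0.354%) and 72 were at least 2-fold lower (0.364%). These counts describe single arrays and carry no test. The steps share the 100K array, whose error enters them with opposite signs. How many genes noise alone would order this way was not tested, so these are not counts of genes that respond to density. In such bulk RNA, fewer cells of a kind and less RNA per cell cannot be told apart.

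The 2 steps were of similar size in the median. Among the 70 genes at least 2-fold higher, the median first step was 0.63 log2 units and the median second step 0.67; the first step was the larger in 30 genes (42.9%) and the second in 40. Among the 72 genes at least 2-fold lower, the median first step was −0.77 and the median second step −0.60, and the first step was the larger in 48 genes (66.7%). Over all genes the first step was the larger in 64.1%, close to the share among the lower genes. SLC44A2 and ACSF2 had most of their increase by 100K, whereas EHF, CD14 and AKR1B10 had most of it between 100K and 200K. MYOT and LOC105377276 reached 0.369 and 0.408 of the 50K level at 100K and stood at 0.366 and 0.407 at 200K. Just inside the 2-fold limit were CDK18, CRABP2 and GRAMD2A at ratios of 2.03, 2.03 and 2.04, and ADM, FRMD3 and CPNE9 at 0.491, 0.492 and 0.496. Just outside it were WFDC21P, CDKN1C and PLLP at 1.995, 1.993 and 1.988, and THBS1, INTU and IL24 at 0.501, 0.503 and 0.504.

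**Figure D1:**
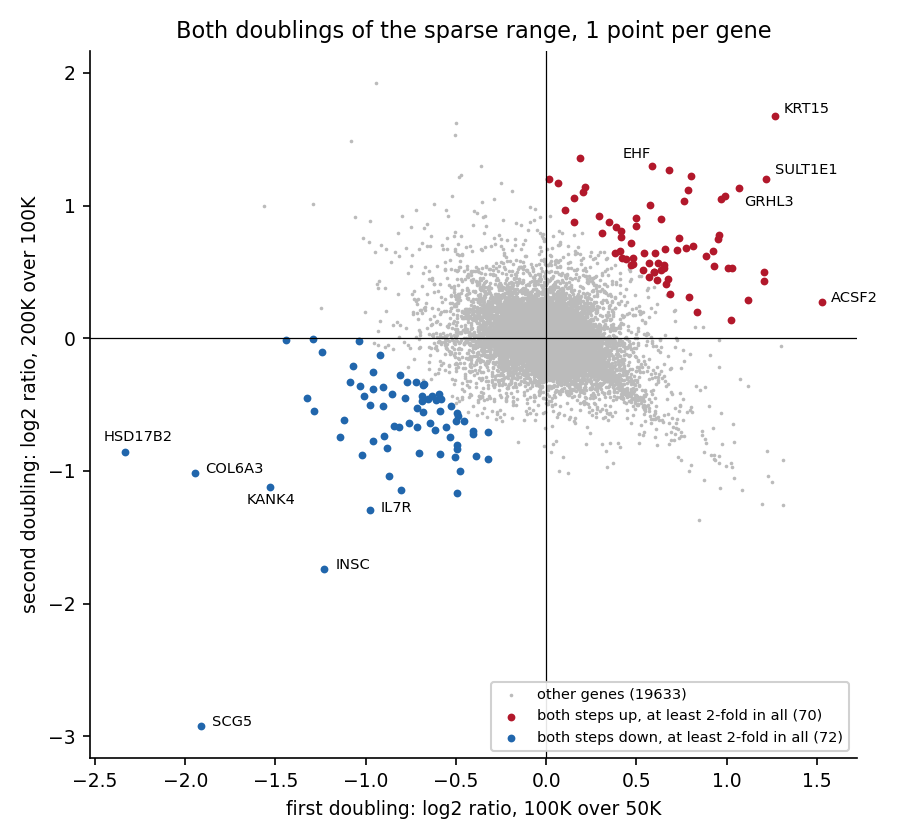
Each point is a gene, with the log2 ratio of the first doubling (100K over 50K) on the horizontal axis and that of the second (200K over 100K) on the vertical axis. The 70 red genes were higher at both steps and at least 2-fold higher in all, the 72 blue genes lower at both and at least 2-fold lower; SCG5 and KRT15 lie farthest out, and all other genes are grey.

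A test of these changes could only use the scatter of arrays around a fitted shape. For each gene, 2 straight lines in log2 of the cells plated, joined at 200K, were fitted with limma to all 6 arrays, and the slope of the first line gives the change per doubling in the sparse range. This slope passed the threshold (adjusted p under 0.05) in 131 of 19775 genes (0.662%), 73 of them rising (0.369%) and 58 falling (0.293%). All 131 changed in 1 direction at both steps, but the slope is fitted to those same values, so this is no separate support. Of the 70 and 72 genes past 2-fold, 41 and 34 passed; these counts rest on the same arrays as the 2-fold rule and are no separate support for it. The residuals mix variation between dishes, technical noise and any bend away from the lines, and the calls depend on single arrays. With the 100K array left out 57 genes passed, 43 of them among the 131; with the 400K array left out it was 43 genes, 37 of them among the 131, with the 600K array 27 and 26, and with the 800K array 94 and 79. With the 50K array left out SCG5 alone passed, and with the 200K array left out none did (limma; 1791 genes had an unadjusted p under 0.05). Below, only genes whose slope passed are said to have risen or fallen.

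The genes with the steepest increase included several of the epidermal barrier. KRT15 rose by 1.48 ± 0.07 log2 units per doubling (slope ± SE, limma adjusted p = 0.0101), and its ratio went on to 21.6 at 400K and 59.9 at 800K. TGM1, a transglutaminase that builds the cornified envelope by crosslinking its proteins, was at 1.75 and 4.08 times its 50K level and rose by 1.00 ± 0.06 per doubling (adjusted p = 0.0105). PPL, the plakin periplakin of the envelope and of desmosomes, was at 1.60 and 3.85 and rose as well (adjusted p = 0.0306). All 3 were named from genes higher at both steps, so their order over 50K, 100K and 200K is set by that choice. GRHL3, a grainyhead transcription factor needed for the skin barrier, was at 2.10 and 4.60 (slope 1.18 ± 0.12, adjusted p = 0.0307), and EHF, an ETS factor of epithelia, was at 1.499 and 3.69 (adjusted p = 0.0471). Both factors rose.

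Kallikreins, serine proteases that cut the desmosomal links of shed skin cells, were higher at both steps. KLK10 was at 1.99 and 4.19 times its 50K level, KLK7 at 1.72 and 3.73, KLK8 at 2.31 and 3.26, and KLK5 at 1.90 and 2.99; all 4 passed the slope test (adjusted p between 0.0105 for KLK10 and 0.0352 for KLK8). KLK11 was at 2.17 and 2.65 (adjusted p = 0.101). The kallikreins are close paralogs and their probe sets may cross-hybridise. Without the probe sets whose names end in _x_at or _s_at (the marked probe sets), KLK8 was higher by 1.37 log2 units at 200K but no longer at each step.

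The other steep increases fell into several kinds of gene. SULT1E1, the sulfotransferase that inactivates oestrogens, was at 2.32 and 5.33 (slope 1.24 ± 0.06, adjusted p = 0.0101), second only to KRT15. CLDN7, a tight junction claudin, was at 1.94 and 3.25 (adjusted p = 0.0371), and IFITM1, an interferon-induced membrane protein that restricts virus entry, at 1.94 and 3.33 (adjusted p = 0.0201). Both rose. PHACTR3, which binds actin and protein phosphatase 1, was at 1.96 and 4.06 (adjusted p = 0.0239), and PRR15L at 1.70 and 3.48 (adjusted p = 0.0259). ACSF2, an acyl-CoA synthetase, was at 2.88 and 3.49 and ANKRD22 at 2.31 and 3.11, and neither passed (adjusted p = 0.104 and 0.0699). MUC1, the transmembrane mucin of luminal surfaces, was at 1.67 and 2.81 with a slope of 0.74 ± 0.03 (adjusted p = 0.0101), and ASS1, which makes argininosuccinate, was at 1.76 and 2.85 (adjusted p = 0.0204).

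The steepest decrease was that of SCG5, which fell by 2.43 ± 0.13 log2 units per doubling (adjusted p = 0.0105) and at 200K was 28.5-fold below its 50K level. Its later ratios were 0.0345 at 400K, 0.0361 at 600K and 0.0345 at 800K, all within a narrow band of the 200K value. INSC, an adaptor that orients the mitotic spindle, was at 0.427 and 0.128 (slope −1.48 ± 0.07, adjusted p = 0.0105). KANK4, of a family that links integrin adhesions to microtubules, was at 0.347 and 0.159 (slope −1.32 ± 0.06, adjusted p = 0.0101), and COL6A3, a chain of collagen VI, at 0.259 and 0.128 (adjusted p = 0.0201). These 4 genes fell, and since the background of the array is unknown, a fall that reached it is understated.

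Secreted and cell surface proteins were among the other genes with low ratios. PTX3, a secreted pattern recognition protein, was at 0.492 and 0.268 and fell (adjusted p = 0.0105). RNASE7, an antimicrobial ribonuclease of epithelia, was at 0.513 and 0.301 and fell (adjusted p = 0.0105), and PMEPA1, a feedback inhibitor of TGF-beta signalling, was at 0.542 and 0.306 and fell (adjusted p = 0.0277). VEGFC, the lymphatic growth factor, was at 0.535 and 0.322 (adjusted p = 0.0215), and CHRNA9, a nicotinic receptor subunit, at 0.453 and 0.271 (adjusted p = 0.0201). Several genes with values as low did not pass: HSD17B2, which oxidises oestradiol, was at 0.199 and 0.110 (adjusted p = 0.0634), IL7R at 0.507 and 0.207 (0.0675), ANGPTL4 at 0.572 and 0.260 (0.0616), AMIGO2 at 0.547 and 0.267 (0.158), SHISA2 at 0.410 and 0.281 (0.0837) and DAW1 at 0.399 and 0.292 (0.053). AKAP12, a scaffold for protein kinase A, was at 0.459 and 0.299 and fell (adjusted p = 0.024).

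The calls of 22 genes held when any 1 of the 100K, 400K, 600K and 800K arrays was left out, a set defined after these results were seen. Of these, 15 rose: KRT15, SULT1E1, TGM1, KLK10, KLK7, KLK5, PRXL2A, MUC1, VSNL1, DSG3, FGFBP1, SYTL2, FXYD3, VAV3 and IFITM2. The 7 that fell were SCG5, INSC, KANK4, PTX3, RNASE7, NT5E and TGM2. Their largest adjusted p with 1 of those 4 arrays left out lay between 0.0464 and 0.0499, so the margin was small. With the arrays centred on their medians PRXL2A had an adjusted p of 0.0608. NT5E, the ecto-nucleotidase CD73 that makes extracellular adenosine, was at 0.608 and 0.382 of its 50K level, and TGM2, the tissue transglutaminase, was at 0.709 and 0.480, opposite in direction to TGM1. DSG3, a desmosomal cadherin of basal keratinocytes, was at 1.58 and 2.52, and FGFBP1, a carrier of fibroblast growth factors, at 1.57 and 2.28. VAV3 was at 1.54 and 2.28, and FXYD3, a regulator of the sodium pump, at 1.56 and 2.23.

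**Figure D2:**
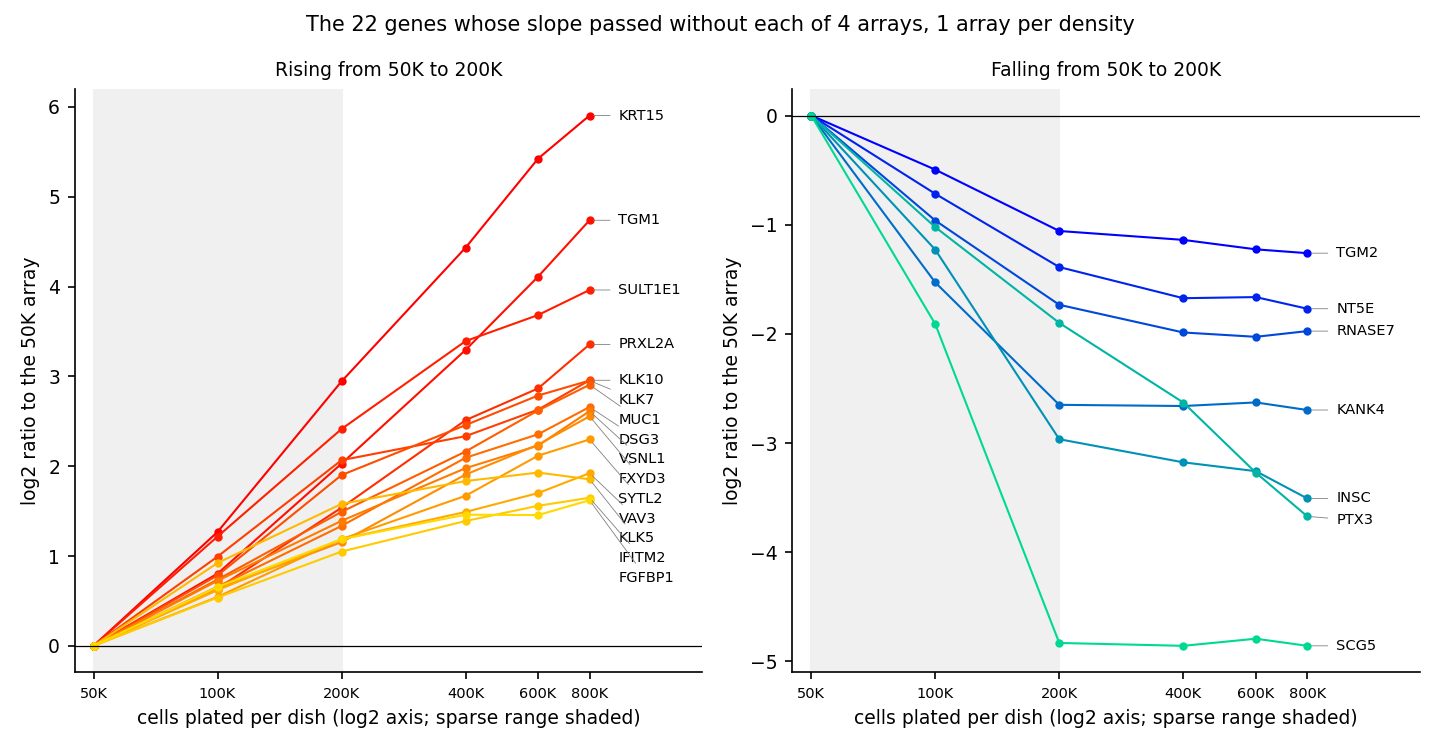
Log2 ratio to the 50K array (vertical axis) against the number of cells plated (log2 axis, the sparse range shaded), 1 point per array. Shown are the 22 genes whose slope passed with each of 4 arrays (not 50K or 200K) left out. None passed without the 200K array. The 15 rising genes continue upward or level off above 200K, whereas SCG5, KANK4, RNASE7 and NT5E are nearly flat from 200K on and PTX3 goes on downward.

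Promoters of members that moved together are shown for motifs of factors tied to spreading, growth signals and interferon. Each is the stretch of 250 bases before the gene's RefSeq start (assembly GRCh38.p14), and capitals mark matches to the motif on either strand. They were picked after the matches were seen. CCN2 (chr6:131951373-131951622, minus strand) is shown with the TEAD motif GGAATG:
CCN2: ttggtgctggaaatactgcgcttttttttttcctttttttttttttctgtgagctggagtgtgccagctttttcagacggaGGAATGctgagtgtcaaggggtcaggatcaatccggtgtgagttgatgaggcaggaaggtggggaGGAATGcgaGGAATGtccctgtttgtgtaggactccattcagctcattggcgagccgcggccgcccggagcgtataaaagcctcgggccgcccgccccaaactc
F3 (chr1:94541760-94542009, minus strand), RNASE7 (chr14:21042112-21042361, plus strand) and INSC (chr11:15112174-15112423, plus strand) are shown with the AP-1 motif TGANTCA:
F3: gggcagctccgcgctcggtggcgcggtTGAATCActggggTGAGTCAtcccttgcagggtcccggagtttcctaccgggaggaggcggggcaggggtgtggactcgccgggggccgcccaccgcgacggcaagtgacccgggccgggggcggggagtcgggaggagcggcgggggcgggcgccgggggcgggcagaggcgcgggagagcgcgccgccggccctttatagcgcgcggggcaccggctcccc
RNASE7: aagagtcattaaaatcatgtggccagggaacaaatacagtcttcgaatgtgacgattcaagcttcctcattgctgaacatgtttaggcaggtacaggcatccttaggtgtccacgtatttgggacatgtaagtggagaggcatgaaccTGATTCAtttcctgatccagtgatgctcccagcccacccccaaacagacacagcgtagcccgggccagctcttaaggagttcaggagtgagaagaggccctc
INSC: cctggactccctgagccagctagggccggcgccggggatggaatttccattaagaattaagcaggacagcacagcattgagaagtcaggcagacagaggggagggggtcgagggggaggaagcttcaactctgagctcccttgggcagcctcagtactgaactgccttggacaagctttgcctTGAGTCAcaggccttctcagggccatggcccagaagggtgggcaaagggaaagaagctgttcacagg
IFI44L (chr1:78620198-78620447, plus strand) and IFITM1 (chr11:313790-314039, plus strand) are shown with the interferon response motif ISRE (GAAA, 2 bases of any kind, and GAAA again):
IFI44L: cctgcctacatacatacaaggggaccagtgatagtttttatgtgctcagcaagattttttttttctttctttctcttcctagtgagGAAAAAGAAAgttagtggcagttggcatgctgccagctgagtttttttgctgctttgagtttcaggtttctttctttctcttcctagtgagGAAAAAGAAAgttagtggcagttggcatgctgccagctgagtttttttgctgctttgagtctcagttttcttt
IFITM1: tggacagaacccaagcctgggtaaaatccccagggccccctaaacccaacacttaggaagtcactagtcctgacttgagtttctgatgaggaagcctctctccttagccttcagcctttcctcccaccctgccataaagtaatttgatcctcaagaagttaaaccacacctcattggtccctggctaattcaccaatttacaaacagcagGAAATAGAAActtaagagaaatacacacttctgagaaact
The CCN2 stretch holds 3 matches, whose first bases lie 169, 104 and 95 bases before the start, and the F3 stretch holds 2, at 223 and 210. In IFI44L the match GAAAAAGAAA occurs 2 times, at 164 and 73. A match is a description of the sequence, not a binding site.

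Motif shares were counted from 250 bases before to 50 after the start, on both strands, for 15384 genes with a promoter in the RefSeq table, 47 of the 70 and 53 of the 72 2-fold genes among them. TGANTCA was in 18.9% of the promoters of the genes that were 2-fold lower (10 of 53) and 12.8% of those 2-fold higher (6 of 47), against 5.84% of all promoters. The 10 genes were AMIGO2, F3, HRH1, IL1A, INSC, KCNJ15, PRSS3, RNASE7, SPHK1 and TFPI2. GGAATG was in 11.3% and 12.8% against 11.9% of all, so its share was near the background in both directions. The ISRE was in 3 promoters of the higher genes (CLDN7, IFI44L and IFITM1; 6.38% against 2.94% of all) and in 1 of the lower genes, CD274. CCAAT was in 42.6% of the higher and 22.6% of the lower promoters against 36.1% of all, and the E-box CACGTG in 4.26% and 13.2% against 8.90%. The cell cycle element TTTGAA was in 10.6% and 3.77% against 11.9%, the E2F motif (TTTGGCGC, TTTCGCGC, TTTCCCGC or TTTGCCGC) in 0 and 3.77% against 4.36%, the CArG box in 0 and 1.89% against 1.22%, and the SMAD palindrome GTCTAGAC in none of either against 0.124%. No test was made of these shares. A match to the CArG box can hold CCAAT, so the counts of that pair are not fully separate.

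Targets of YAP, TAZ and TEAD were lower as a group. Of 23 measured members, 15 were lower at both steps and 2 higher at both, against 15.3% and 16.1% of all genes, and their median log2 ratio at 200K was −0.39 against 0.03 over all genes. CCN1, a matricellular integrin ligand, was at 0.709 of its 50K level at 100K and at 0.316 at 200K (adjusted p = 0.0551), and CCN2 was at 0.704 and 0.378 (adjusted p = 0.0661). Both had their larger step between 100K and 200K, and neither passed the slope test. F3, the tissue factor that starts coagulation, was at 0.708 and 0.459 and fell (adjusted p = 0.0257), as did NT5E and DLC1 (0.737 and 0.577). ANKRD1, another textbook target, was at 1.06 and 1.08. The slope test passed in 3 members, all falling.

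The kinases and regulators of the Hippo pathway had a median of −0.12. Of 20, 8 were lower at both steps (40%, against 15.3% of all genes) and none higher at both (16.1% of all genes). None passed the slope test. The atypical cadherin FAT4 was at 0.639 and 0.586, the FERM protein FRMD6 at 0.785 and 0.657, and the coactivator gene YAP1 at 0.914 and 0.981. The 23 SRF targets and contractile actin genes had 9 lower at both steps (39.1%) and none higher at both, with a median of −0.15. MYH9, the heavy chain of non-muscle myosin, was at 0.894 and 0.725. Among 20 focal adhesion genes, 9 were lower and 2 higher at both steps (45% and 10%), with a median of −0.22. The fibronectin receptor subunit ITGA5 was at 0.929 and 0.711 and the integrin activator FERMT2 at 0.773 and 0.572, and none of the 20 passed the test.

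Extracellular matrix genes and the proteases that cut matrix were mostly lower. Of 25 matrix genes, 15 were lower at both steps (60%, against 15.3% of all genes), 2 were higher at both (8%, against 16.1%), and 3 fell. LAMB3, a chain of laminin-332 in the epithelial basement membrane, was at 0.682 and 0.429 and fell (adjusted p = 0.0307). FN1, fibronectin, was at 0.668 and 0.487 and fell (limma adjusted p = 0.0208). Without the marked probe sets (_x_at and _s_at) its log2 ratio at 200K was −0.42, short of 2-fold. CCBE1 was at 0.724 and 0.533 and fell, and THBS1, thrombospondin, was at 0.624 and 0.501. HSPG2, perlecan of the basement membrane, was higher at both steps, at 1.12 and 1.53. Of 17 proteases and inhibitors, 11 were lower and 1 higher at both steps (64.7% and 5.88%). ADAMTS6 was at 0.508 and 0.358 and SERPINE2, an inhibitor of plasminogen activators, at 0.716 and 0.517; both fell. MMP9 was at 0.710 and 0.397 (adjusted p = 0.0531). PLAT, the tissue plasminogen activator, was at 1.20 and 1.65 and rose, whereas PLAU, the urokinase type, was at 0.738 and 0.591.

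TGF-beta targets and feedback genes were lower at both steps in 14 of 24 (58.3%, against 15.3% of all genes). They were higher at both in 2 (8.33%, against 16.1%). Their median was −0.22, and −0.12 over 18 genes without the marked probe sets. PMEPA1 was the only member that passed the slope test. INHBA, the activin A subunit, was at 0.623 and 0.423 (adjusted p = 0.104), ID3 at 0.723 and 0.555 and SMAD7, the inhibitory SMAD, at 0.835 and 0.690. FST, follistatin, which traps activin, was at 1.48 and 1.66. Of 17 mesenchymal transition genes, 7 were lower and 1 higher at both steps (41.2% and 5.88%). SNAI2, the repressor Slug, was at 0.766 and 0.514 and fell, and CDH2, N-cadherin, was at 0.703 and 0.567; VIM, vimentin, was at 1.11 and 0.969.

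Cell junction genes ran the other way. Of 25 genes of desmosomes, tight junctions and adherens junctions, 13 were higher at both steps (52%, against 16.1% of all genes). At both steps 1 was lower (4%, against 15.3%). Of the 25, 3 reached 2-fold, 2 rose (CLDN7 and DSG3), and the median was 0.28. OCLN, occludin, was at 1.39 and 2.29 (adjusted p = 0.0904), CLDN4 at 1.20 and 1.84, and CDH1, E-cadherin, at 1.08 and 1.43. Its partner CTNNB1, beta-catenin, was lower at both steps, at 0.880 and 0.868. Gap junction genes showed no such tendency: of 6, GJB5 was higher at both steps (16.7%) and GJA1 and PANX1 lower (33.3%).

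Of 11 basal and simple keratins, 7 were higher at both steps (63.6%, against 16.1% of all genes), none lower at both (15.3% of all genes), and 4 rose. KRT14, the partner of KRT5 in basal cells, was at 1.20 and 1.59, KRT16, a keratin of activated epidermis, at 1.26 and 1.81, and KRT8, of simple epithelia, at 1.31 and 1.74; these rose together with KRT15. KRT5 was at 1.17 and 1.31. KRT23 was at 1.48 and 2.04 and did not pass the slope test (limma adjusted p = 0.674). It was at 3.02 on the 400K array, 4.14 on the 600K array and 11.4 on the 800K array. The test for a change of its slope at 200K did not pass either (limma adjusted p = 0.646). Of 21 luminal mammary genes, 10 were higher (47.6%) and none lower at both steps. MUC1 and KRT8 rose, MUC16, a membrane mucin, was at 1.41 and 2.53 (adjusted p = 0.156), and the luminal receptors ESR1 and PGR were at 1.06 and 1.07 at 200K.

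Of 36 keratinocyte differentiation genes, 19 were higher and 6 lower at both steps (52.8% and 16.7%, against 16.1% and 15.3% of all genes). The increase lay in a few members, and the median was 0.10. The 5 that rose were TGM1, PPL, KLK5, KLK7 and KLK10. ALOX15B, an epidermal lipoxygenase, was at 1.22 and 2.32 (adjusted p = 0.0902). Envelope precursors of later differentiation went both ways, and none of those named here passed the slope test. IVL, involucrin, was at 1.06 and 0.897, SPRR3 at 0.929 and 0.626, LCE3D at 0.844 and 0.697, and FLG, filaggrin, at 1.02 and 1.01, whereas SPRR1B was at 1.11 and 1.34 and SPRR2B at 1.47 and 1.496. Of 16 transcription factors of epidermal differentiation, 8 were higher (50%) and none lower at both steps. GRHL3 and EHF rose, PRDM1, the repressor Blimp-1, was at 1.33 and 1.40, and OVOL1 at 1.27 and 1.28. ELF3 and ZNF750 first dropped and then passed 2-fold, at 0.705 and 2.04 for ELF3 and at 0.708 and 2.18 for ZNF750, so the rule on both steps left them out.

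**Figure D3:**
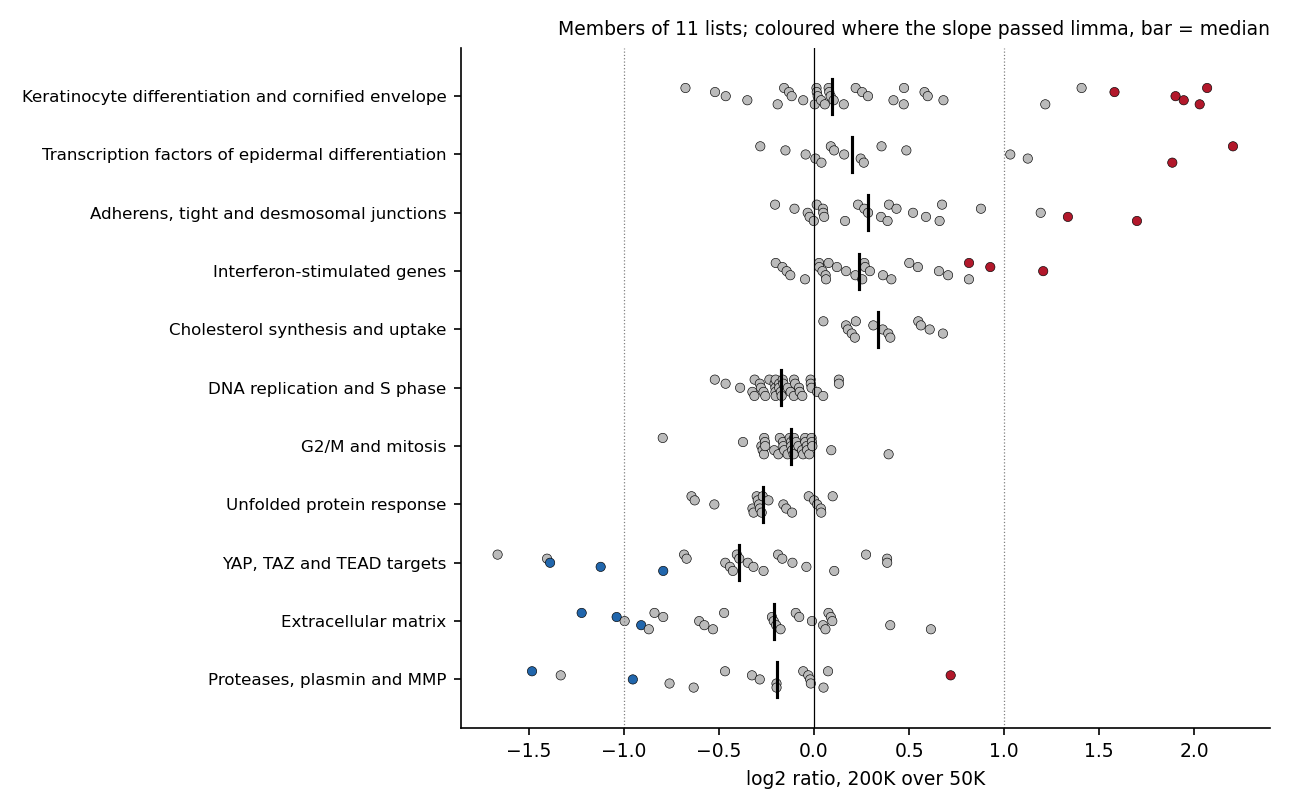
Each point is a member of 1 of 11 lists at its log2 ratio of 200K over 50K; red and blue points passed the slope test (limma), vertical bars are list medians and dotted lines mark 2-fold. The coloured points of the top 4 lists lie to the right of 0 and those of the bottom 3 to the left, apart from PLAT, and the lists of the cell cycle, cholesterol synthesis and the unfolded protein response have none.

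Cell cycle genes were slightly lower, with no single gene called. Of 37 DNA replication genes, 18 were lower at both steps (48.65%, against 15.3% of all genes) and 1 (GINS2) higher at both (2.70%, against 16.1%). Of the 37, 33 were lower at 200K than at 50K, as were 7276 of all 19775 genes. The median was −0.17. RRM2, a subunit of ribonucleotide reductase, was at 0.799 and 0.724, RFC3, of the clamp loader, at 0.786 and 0.697, and CCNE2, cyclin E2, at 0.885 and 0.764. Of 35 mitosis genes, 14 were lower and 2 higher at both steps (40% and 5.71%), with a median of −0.12. The mitotic kinase AURKB was at 0.744 and 0.576, and the proliferation marker MKI67 was at 0.866 and 0.893. No gene of either list reached 2-fold or passed the slope test. From 400K to 800K, in arrays that the sparse range does not use, all 37 and 34 of 35 were lower (41.7% of all genes). That difference covers fewer doublings than 50K to 200K, and its medians were −0.87 and −0.73. Members of these lists share a cell cycle programme and are not independent of each other.

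Among G1 cyclins, kinases and E2F factors, 7 of 15 were lower at both steps (46.7%, against 15.3% of all genes). At both steps 2 were higher (13.3%, against 16.1%). CCND1, cyclin D1, was at 0.861 and 0.787, CDK6 at 0.763 and 0.7496, and CCND3, cyclin D3, was higher, at 1.09 and 1.68. Of 18 CDK inhibitors and quiescence genes, 9 were higher (50%) and none lower at both steps. CDKN1C, the inhibitor p57, was at 1.44 and 1.99 and rose, PDCD4, a translation inhibitor, was at 1.25 and 1.78, and SESN1 at 1.48 and 1.52. CDKN1A, the inhibitor p21, was at 1.04 and 1.06.

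Interferon-stimulated genes were higher at both steps in 15 of 28 (53.6%, against 16.1% of all genes). None was lower at both (15.3% of all genes), and the median was 0.24. IFI44L was at 1.57 and 2.31 and rose (adjusted p = 0.0428), as did IFI27 (1.47 and 1.90) and UBE2L6, the conjugating enzyme for ISG15 (1.31 and 1.76). IFIT1 was at 1.09 and 1.76, and OAS1 at 1.07 and 1.63. Other members lay near 1: MX1 was at 1.05 and 1.04 and IRF7 at 0.905 and 0.905. IFITM2, at 1.45 and 2.07, and IFITM3, at 1.98 at 200K, also rose, but they are near-identical to IFITM1 and their probe sets may share signal. TRIM22, an interferon-induced ubiquitin ligase outside the list, was at 1.40 and 2.13 and rose (adjusted p = 0.0306).

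Inflammatory genes went in both directions. Of 28 cytokines and chemokines, 9 were higher and 7 lower at both steps (32.1% and 25%, against 16.1% and 15.3% of all genes). The interleukin-1 genes IL1A and IL1B were at 0.606 and 0.483 and at 0.769 and 0.558, IL24 at 0.515 and 0.504, and the chemokine CCL28 at 1.02 and 1.93. TNFAIP3, the ubiquitin-editing enzyme A20 that restrains NF-kappaB, was at 0.568 and 0.357 and fell (adjusted p = 0.0393), and CD274, the checkpoint ligand PD-L1, was at 0.614 and 0.338 (adjusted p = 0.104). Among 16 innate defence and acute phase genes, 5 were higher and 2 lower at both steps (31.25% and 12.5%). SERPINA3, an inhibitor of serine proteases, was at 1.49 and 3.00 (adjusted p = 0.0728), CD14, the lipopolysaccharide coreceptor, at 1.14 and 2.92 (0.175), and complement C3 at 1.14 and 1.72. PTX3 went the opposite way, and SLPI was at 1.47 and 1.41.

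Lipid synthesis genes were higher, mostly at the second doubling. All 14 cholesterol genes were higher at 200K than at 50K, as were 12468 of all 19775 genes. At both steps 11 were higher (78.6%, against 16.1% of all genes). The median was 0.10 at 100K and 0.34 at 200K. HMGCS1, the synthase of the mevalonate pathway, was at 1.21 and 1.60, LSS, lanosterol synthase, at 1.30 and 1.52, and INSIG1, which holds back SREBP, at 1.04 and 1.46. Of 15 fatty acid genes, 9 were higher and 1 (GPAM) lower at both steps (60% and 6.67%). Their median was 0.41, and 0.09 over 11 genes without the marked probe sets. The factor SREBF1 was at 1.30 and 1.91 and the desaturase SCD at 1.19 and 1.87. None of either list reached 2-fold or passed the slope test. From 400K to 800K the medians were 0.07 and −0.06.

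Genes of the unfolded protein response and of heat shock were mostly lower. In the unfolded protein response, 13 of 21 genes were lower (61.9%, against 15.3% of all genes) and none higher at both steps (16.1% of all genes). Their median was −0.27, and −0.16 over 17 genes without the marked probe sets. DNAJB9, a co-chaperone of the endoplasmic reticulum, was at 0.766 and 0.640, DNAJC3 at 0.681 and 0.647, and HSPA5, the chaperone BiP, at 0.853 and 0.802. Of 14 heat shock genes, 8 were lower and 1 higher at both steps (57.1% and 7.14%), with FKBP4 at 0.839 and 0.7496. The amino acid response list was split, with 8 of 22 higher and 5 lower at both steps (36.4% and 22.7%). DDIT4, an inhibitor of TORC1, was at 1.18 and 1.57, and the cystine transporter SLC7A11 was at 0.771 and 0.551. Among 22 oxidative phosphorylation genes, 9 were higher and 1 lower at both steps (40.9% and 4.55%), with a median of 0.17. No gene of these 4 lists passed.

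Growth factor signalling genes had lower ligands and feedback regulators. Of 11 EGF receptor family genes, 6 were lower and 1 higher at both steps (54.5% and 9.09%, against 15.3% and 16.1% of all genes). The ligand EREG, epiregulin, was at 0.800 and 0.618 and fell. TGFA was at 0.757 and 0.626, and the receptor EGFR at 0.990 and 0.852. Of 26 ERK feedback and immediate early genes, 12 were lower and 3 higher at both steps (46.2% and 11.5%), and none passed. FOSL1, the AP-1 subunit FRA1, was at 0.994 and 0.566, JUN at 0.754 and 0.687, and the phosphatase DUSP4 at 0.767 and 0.698. FOS itself was at 2.48 and then 1.32, and at 2.65, 4.03 and 5.75 on the 400K, 600K and 800K arrays. FGFR3, a receptor for fibroblast growth factors, was at 1.60 and 2.17 and rose (adjusted p = 0.0247).

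In the Notch list 5 of 16 were higher and 4 lower at both steps (31.25% and 25%, against 16.1% and 15.3% of all genes). The receptor NOTCH1 was at 1.16 and 1.66 and the glycosyltransferase LFNG at 0.766 and 0.709. None of 22 Wnt genes was higher at both steps, and 3 were lower (13.6%, near the share of all genes). Sphingolipid genes had members at both ends: SPHK1, which makes sphingosine 1-phosphate, was at 0.558 and 0.353 (adjusted p = 0.171), SGPP2, a phosphatase that removes it, was at 1.33 and 2.26 and rose (adjusted p = 0.0306), and its receptor S1PR1 was at 0.524 and 0.506. Glucocorticoid-induced genes, in a medium with the same hydrocortisone at each density, were higher at both steps in 8 of 16 (50%) and lower in 2 (12.5%). ZBTB16 was at 1.90 and 2.78 and TFCP2L1 at 1.33 and 1.75, and both rose; TSC22D3, the leucine zipper GILZ, was at 1.38 and 1.97, whereas ANGPTL4 was the lowest member.

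The remaining lists had no gene that passed the slope test. Among 20 ribosome biogenesis genes 4 were higher and 4 lower at both steps (20% each, against 16.1% and 15.3% of all genes). Of 15 histones 2 were higher and 1 lower (13.3% and 6.67%), and of 26 glycolysis and hypoxia genes 6 higher and 4 lower (23.1% and 15.4%). Of 19 NRF2 targets 4 were higher and 8 lower (42.1% lower, against 15.3% of all genes). Of 21 p53 targets 7 were higher and 2 lower (33.3% higher, against 16.1%). ADM, adrenomedullin, of the hypoxia list was at 0.801 and 0.491, the aldo-keto reductase AKR1B10 of the NRF2 list at 1.01 and 2.32, and GDF15 of the p53 list at 1.15 and 1.35. With centred arrays AKR1B10 no longer met the rule on both steps.

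**Figure D4:**
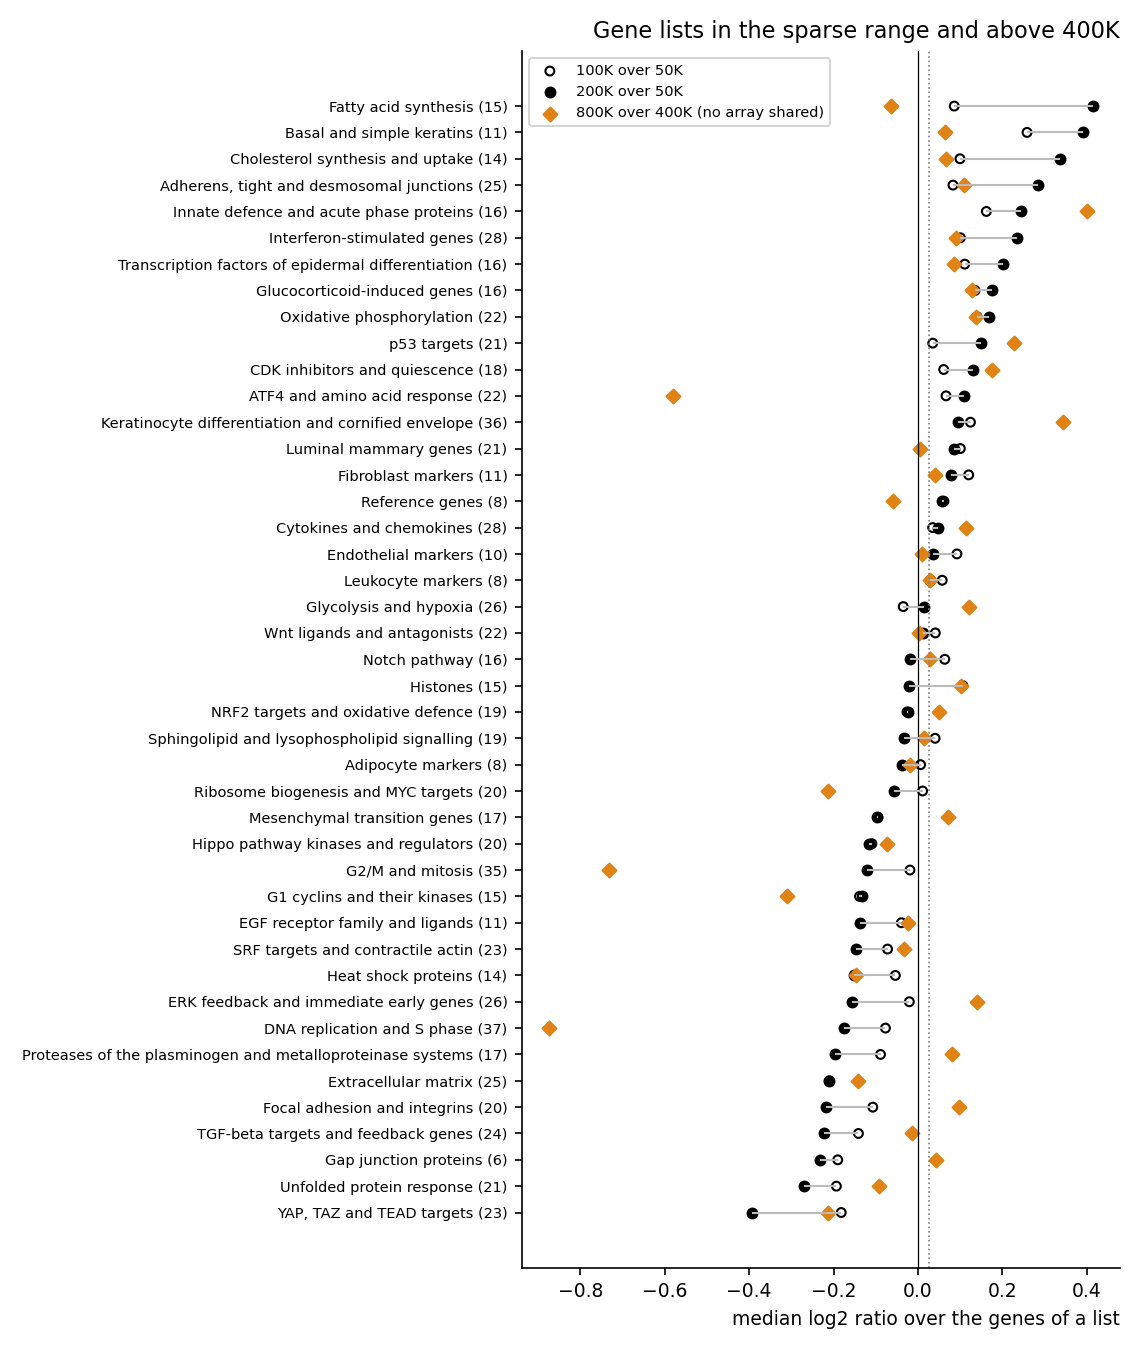
Median log2 ratio (horizontal axis) over the measured genes of each list, whose number is in brackets, at 100K over 50K (open circles), 200K over 50K (filled circles) and 800K over 400K (orange diamonds); the dotted line is the median of all genes at 200K. Fatty acid synthesis (0.41, but 0.09 without the _x_at and _s_at probe sets) and keratins (0.39) lie highest at 200K and YAP, TAZ and TEAD targets (−0.39) lowest. DNA replication and mitosis genes lie lowest at 800K over 400K (−0.87 and −0.73), a ratio that covers fewer doublings than 200K over 50K.

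Markers of other cells and array controls gave these values. No marker of fibroblasts (11 genes), endothelial cells (10), leukocytes (8) or adipocytes (8) reached 2-fold or passed the slope test, with medians at 200K between −0.04 and 0.08, though ratios cannot show whether such a marker is absent. The 8 reference genes had a median of 0.06 and lay between −0.05 and 0.18. Over the probe sets that are not controls, median ratios were 1.03 at 100K and 1.02 at 200K. The 24 poly-A spike probe sets, added to RNA before labelling, were lower by a median of −0.26 log2 units at 100K and −0.45 at 200K, and the 18 hybridisation spikes were at 0.10 and 0.08; the part of labelling in the changes was not tested. The ratio of the 3′ to the 5′ control probe sets of ACTB moved by −0.02 and 0.04 log2 units and that of GAPDH by 0.07 and −0.05, relative to 50K.

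Whether the changes of the sparse range went on was read from the arrays above it. The difference between 400K and 800K shares no array with that between 50K and 200K. It covers fewer doublings, so sizes of the 2 differences are not alike in span. Neither holds the step from 200K to 400K. Of the 70 genes 2-fold higher by 200K, 60 were also higher at 800K than at 400K (85.7%, against 56.6% of all genes), with a median further change of 0.56 log2 units. Of the 72 genes 2-fold lower, 45 were lower at 800K than at 400K (62.5%, against 41.7% of all genes), and the median was −0.10. Together 105 of 142 had the same direction in both differences (73.9%, against 61.6% of all genes), with no test made over genes. The upper difference was within 0.25 log2 units for 15 of the 70 higher genes and 41 of the 72 lower ones (21.4% and 56.9%, against 80.8% of all genes). Without intensities it is unknown which lower genes had reached background, where no further fall would show. Of 54613 probe sets that are not controls, 6846 had the same ratio on at least 2 of the arrays above 50K. The reason was not tested.

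Single genes show the range of these courses. COL6A3 was at 0.128 at 200K, 0.115 at 400K and 0.120 at 800K, and KANK4 at 0.159, 0.158 and 0.154. RNASE7 was at 0.301, 0.252 and 0.254, and CHRNA9 at 0.271, 0.306 and 0.312. By contrast PTX3 went from 0.268 to 0.162 and 0.0785, and AMIGO2 from 0.267 to 0.233 and 0.0743. Among the higher genes TGM1 went from 4.08 at 200K to 9.81 at 400K and 26.7 at 800K, BBOX1, which completes carnitine synthesis, from 2.32 to 8.07 and 27.2, and FGFR3 from 2.17 to 6.22 and 15.9. KLK5 was at 2.99, 3.57 and 3.62, close to level. LINC00880 was at 2.05 at 200K and back at 1.03 at 400K.

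The test of whether the slope above 200K differed from the slope below it passed in no gene (limma, 0 of 19775, 0%; 2357 genes, 11.9%, had an unadjusted p under 0.05). So no gene is shown to change in the sparse range in a way that differs from the rest of the series. The smallest p-values belonged to S100A8, a subunit of calprotectin, whose slope was higher by 1.57 ± 0.10 log2 units per doubling above 200K, and KANK4, whose slope was higher by 1.34 ± 0.10, from −1.32 below 200K to 0.02 above it (adjusted p = 0.19 for each). For SCG5 the difference was 2.34 ± 0.22 and for TNFAIP3 1.51 ± 0.15, with the same adjusted p. SCG5 had the same ratio at 400K and 800K, and whether it had reached background is unknown. Without the 100K array SCG5 passed, and with cell number in place of its log2 the genes COL7A1, INSC, PRSS3 and SCG5 did.

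**Figure D5:**
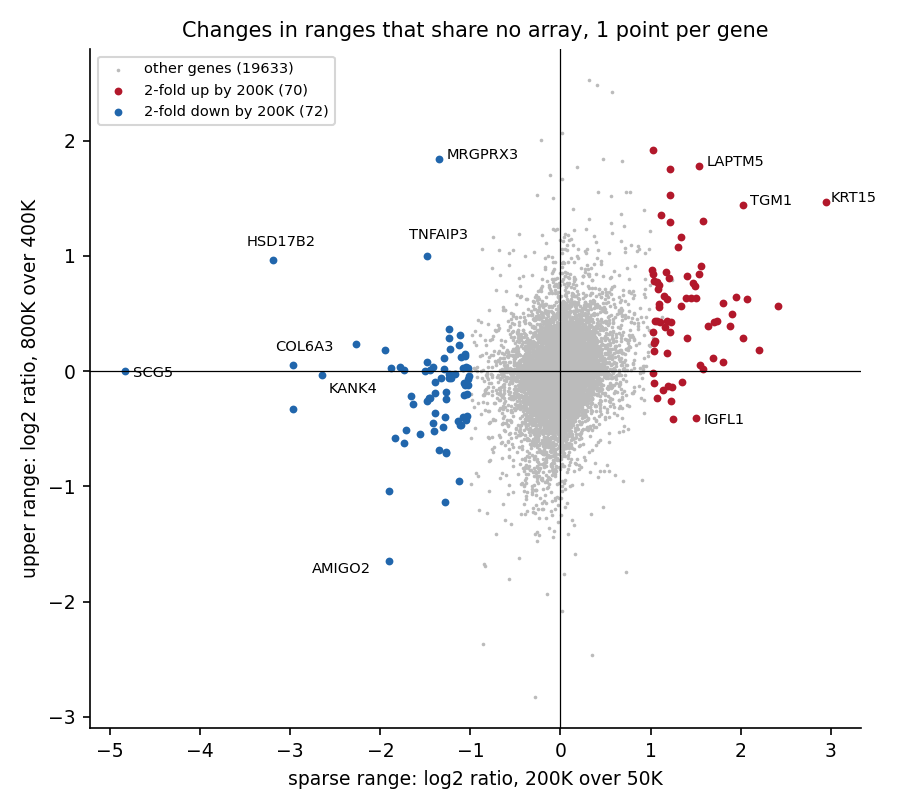
Each point is a gene, with the log2 ratio of 200K over 50K on the horizontal axis. The vertical axis has that of 800K over 400K, from other arrays and over fewer doublings. Of the 70 red genes 60 lie above 0 on the vertical axis, and of the 72 blue genes 45 lie below it; SCG5, KANK4 and COL6A3 lie near 0, and TNFAIP3, HSD17B2 and MRGPRX3 turn upward.

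A few genes moved by 2-fold without meeting the rule on both steps. Besides ELF3 and ZNF750 these were CHST4, a sulfotransferase, with steps of −1.25 and 0.22 log2 units, and PRODH, proline dehydrogenase, with steps of 1.30 and −0.06. Among genes whose second step turned back by at least 0.5 log2 units, FOS, PPM1F-AS1, FAM9C and CFAP184 had the highest 100K values, and ADGRG2, ARL14, ZNF767P and OSCP1 the lowest. ADGRG2, an adhesion receptor, was at 0.338 at 100K and 0.673 at 200K. With 1 array at 100K, a value there that stands apart from both its neighbours cannot be told apart from an error of that array.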

How the data were processed

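Affymetrix HG-U133 Plus 2 arrays took 200 ng of total RNA each from MCF10A cells at 6 densities. Per the submitters' processing notes the arrays were summarised with RMA, which corrects background, normalizes between arrays and summarises probes; no version is given. What the authors deposited is, for each of 54675 probe sets, a linear ratio to its 50K value; no source used here says how that division was done. Without intensities, signal over background is unknown.

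Of the probe sets, 62 controls were left out, 41091 with 1 gene symbol in the platform annotation were used, and 1801 with several and 11721 not listed there were not. Their log2 ratios were averaged into 19775 genes, 9252 of them with 1 probe set. A step of under 1e-06 counted as none. limma 3.58.1 in R 4.3.3 fitted the 2 joined lines with 3 residual degrees of freedom; p-values were two-sided and adjusted by the Benjamini-Hochberg method across the 19775 genes. The procedure was tested on simulated data. Promoter sequences and their coordinates came from RefSeq.

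Genes were named by a rule: the 15 largest rises and 15 largest falls with all probe sets in 1 direction, up to 4 members of each list, genes that turned back at 200K, and reference genes. Further members and list genes were picked with their values known. The range, its gene lists and the rule were chosen with earlier results of these data known. Alternatives were the probe sets used, centring, medians of probe sets, single probe sets, other step and fold limits, agreement of probe sets, a fit on 3 arrays, robust variances, cell number unlogged, and leaving out each array. Control probe sets were read after the data were examined.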

Additional observations from a re-analysis of the deposited data

Results flagged for a closer look

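Among the 142 genes at least 2-fold changed at 200K with both steps in 1 direction, 16 ran the other way at both steps above 400K, from 400K to 600K and from 600K to 800K. That opposition was not tested gene by gene in this form; the limma test of the slope after 200K against the slope up to it passed in none of them. By comparison 76 genes ran the same way at both upper steps and 50 had mixed steps. The 16 are 11.3% of the 142, against 14.96% of all genes, and the 76 are 53.5%, against 24.6% of all genes.

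Of the 16, 10 were lower at 200K. The pattern was largest for MRGPRX3, a receptor of the Mas-related family, whose log2 difference between 800K and 400K was 1.84 after ratios of 0.423 at 100K and 0.394 at 200K. TNFAIP3, the NF-kappaB regulator A20, gained 1.00 and ended at 1.03 times its 50K level, and HSD17B2, an oestradiol-oxidising enzyme, gained 0.963. The other differences were 0.364 for INHBA, 0.317 for MLPH, 0.285 for ANTXR2, 0.234 for IL7R, 0.225 for TFPI2, 0.113 for PRSS3 and 0.0333 for GPR63.

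The 6 that were higher at 200K were lower at 800K than at 400K by smaller amounts. The differences were −0.415 for SLC27A2, −0.410 for IGFL1, −0.256 for MACC1, −0.234 for CLMN, −0.134 for PRR15 and −0.103 for SLC44A2.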

How the results depend on the processing

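No paired analysis was possible because each density has 1 array. No result reversed. Of the 6204 genes with both steps in 1 direction (3181 up, 3023 down), 308 (149 and 159) had steps of at least 0.25 log2 units and 3054 (1550 and 1504) had all probe sets in agreement; among 54613 single probe sets the count was 15648 (7730 and 7918). The 142 genes past 2-fold (70 and 72) became 520 at 1.5-fold (256 and 264), 32 at 3-fold (15 and 17) and 478 single probe sets (221 and 257). These counts differ in the limits set, the agreement asked of probe sets, or the unit counted. The 131 slope calls (73 and 58) were less stable. Without the marked probe sets (_x_at and _s_at) 22 passed (11 and 11), all among the 131. Centred arrays gave 47 (26 and 21), 45 of them among the 131, and the scale of cells plated gave 23 (12 and 11). A line through the 50K, 100K and 200K arrays alone gave 1046 (516 and 530) with 1 residual degree of freedom. Leaving out 1 array gave 0 to 94 calls (0 to 50 up, 0 to 44 down). The slope difference at 200K, called in 0 genes, was called in 4 (all 4 up) on the scale of cells plated and in 0 to 1 with 1 array left out (the 1 up, SCG5). The share of 2-fold genes with the same direction above the range was 73.9% (61.6% of all genes), and 83.8% (50.05% of all genes) when read from 200K to 800K, which shares the 200K array; it was 76.6 to 77.7% under 3 alternatives chosen after seeing the data (marked probe sets left out, centring, medians of probe sets). The cause of the lost calls was not tested. List medians moved by more than the typical residual in 8 of 43 lists without the marked probe sets and in 1 with medians of probe sets. Among 187 named genes the 2-fold call was lost for ADAMTS6 (median of probe sets), AKR1B10 (centring), and FN1, INHBA and KLK8 (marked probe sets left out). Limits: 1 array per density gives no replicate spread; ratios carry no level, so a fall to background is understated.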
